A study of Vulpes lagopus with 12 samples.

Results

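The genes described here encode the T cell receptor complex, its coreceptors and the first signalling proteins behind it. They were read in blood RNA of the Arctic fox (Vulpes lagopus) on a dog array, the Affymetrix Canine Genome 2.0, so that dog probes met fox transcripts. Of 10 genes named for the set (CD3D, CD3E, CD3G, CD4, CD8A, CD28, CD5, LCK, ZAP70 and LAT), 9 had at least 1 probe set annotated to that gene alone, and all 15 such probe sets were taken. Where a gene has a pair of probe sets, the one with the higher mean over all arrays is called its first and the other its second. In 8 of the 15 the probe set name ends in _s_at, which marks probes that can match more than 1 transcript. The 15 stand among 42924 tested probe sets and 15115 genes in all. ZAP70 had no such probe set and is not analysed here.

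The series holds 11 arrays of foxes and 1 array whose title calls it a canine control. All 12 carry the organism label Vulpes lagopus and the tissue label blood, so the origin of the control RNA beyond its title is not known here. Foxes are numbered 1 to 11 as listed. The design statement asks whether the fox blood cells held polychlorinated biphenyls or mercury, but the labels give no exposure, age, sex or batch for single foxes, so foxes were not compared in groups. Nothing in the labels says that the 11 samples came from 11 animals, so the spread between them may be partly technical.

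A T cell recognises antigen through its receptor, whose antigen-binding chains have almost no cytoplasmic part and pass the signal through the CD3 chains. CD4 or CD8 binds the MHC molecule that presents the antigen and brings the kinase LCK to the complex. LCK phosphorylates the CD3 chains, ZAP70 docks there and phosphorylates the adaptor LAT, and calcium, NF-kB and MAP kinase signals follow. CD28 gives the costimulatory signal and CD5 dampens the response. In blood these genes are known mainly, but not only, from T cells. For example, NK cells share several of them, and CD4 is also found on other leukocytes, in the dog on neutrophils.

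Values are log2 expression as normalized by the authors, and all differences below are foxes minus control on that scale. The table gave no detection call, so whether a low value lay above background could not be read, and levels are compared between arrays for 1 probe set and never between genes. The median of an array was 7.06 to 7.17 among foxes, against 6.85 for the control. Foxes 9, 10 and 11 stood apart: the 3' minus middle difference of the GAPDH control probe sets, a measure of RNA or target quality, was 0.42 to 1.08 there and 2.56 to 3.19 in the first 8 foxes, with −0.08 for the control. On this measure foxes 1 to 8 lay farther from the control than foxes 9, 10 and 11, so standing apart does not mean poorer quality. Correlations across probe sets were 0.957 to 0.990 within foxes 1 to 8 and 0.900 to 0.968 between these and foxes 9, 10 and 11. Between foxes and control they were 0.684 to 0.763. The spread of the members and their calls against the control are therefore given with and without foxes 9, 10 and 11. The marker and pathway calls use all 11 foxes unless stated.

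Over all 11 foxes the CD3 chain genes and 1 LCK probe set had the widest spread of the members, but without foxes 9, 10 and 11 only CD3D kept an SD above 0.45. SDs over the 11 foxes were 0.45 to 0.74 for the 5 CD3 probe sets and 0.94 for the first LCK probe set. They lay between 0.10 and 0.25 for the other 9. In foxes 1 to 8 the SDs were 0.61 and 0.49 for CD3D, 0.30 for CD3G, 0.26 and 0.21 for CD3E and 0.25 for the first LCK probe set. CD4 had SDs of 0.13 and 0.21 there, first and second probe set, and LAT 0.21 and 0.14. The median SD of the 15 probe sets was 0.21 over 11 foxes and also over foxes 1 to 8, beside 0.22 and 0.18 for all tested probe sets. In whole blood a lower share of T cells and less RNA per T cell cannot be told apart.

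**Figure D1:**
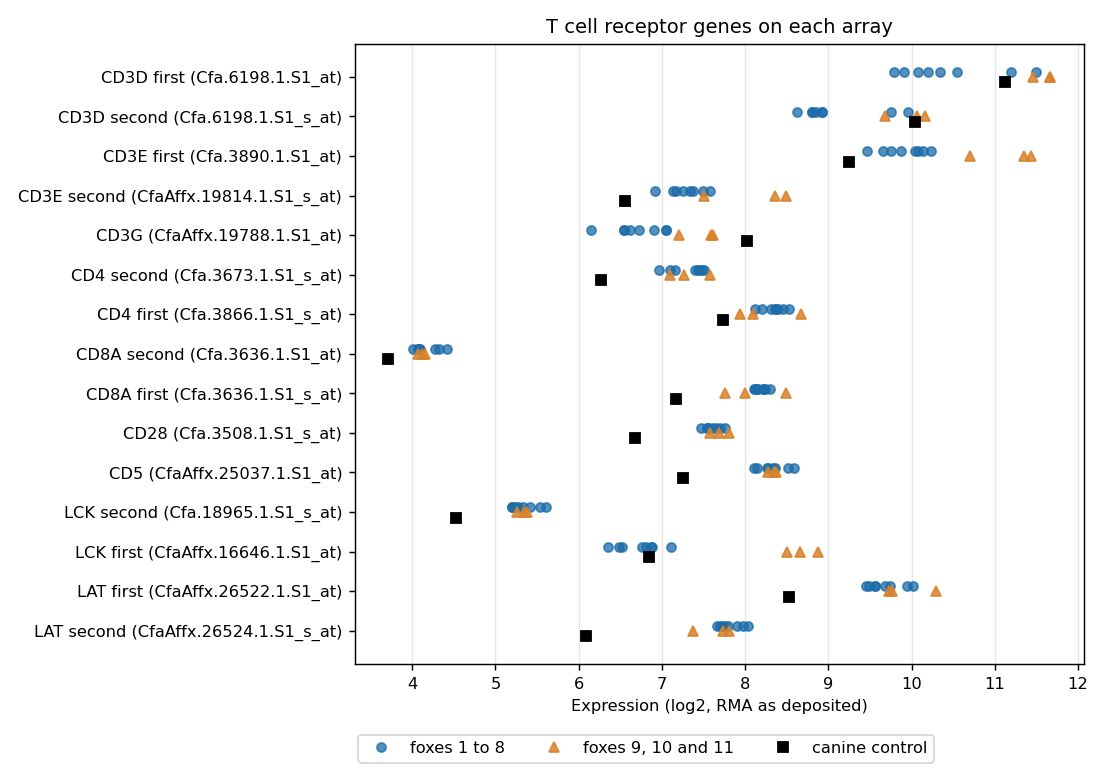
Log2 expression (horizontal axis) of the 15 probe sets, 1 row each, on every array; circles are foxes 1 to 8, triangles foxes 9, 10 and 11, squares the canine control. The CD3 rows and the first LCK row are wide, with the triangles to the right, while CD8A, CD28, CD5 and the other LCK row span under 1 log2 unit over all foxes and have the control at their left.

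CD3D encodes the delta chain of CD3. Its first probe set ran from 9.79 to 11.67 in the foxes, with a median of 10.55. Foxes 1 to 6 were low, foxes 7 to 11 high: fox 7 stood at 11.19, fox 8 at 11.49, and foxes 9, 10 and 11 at 11.66, 11.46 and 11.67. The second CD3D probe set had the same division, with foxes 1 to 6 at up to 8.93, foxes 7 and 8 at 9.75 and 9.95, and foxes 9, 10 and 11 at 9.68 to 10.16. Both probe sets tracked each other over foxes 1 to 8, with a Pearson r of 0.957. Within these 8 foxes the SD of the first was 0.61, above that of 95.9% of all tested probe sets.

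CD3E and CD3G encode the epsilon and gamma chains. The first CD3E probe set ran from 9.46 to 10.24 in foxes 1 to 8, and foxes 9, 10 and 11 stood at 11.44, 10.70 and 11.36, all above them. Foxes 7 and 8 were among the higher of the first 8, at 10.13 and 10.24, but by 0.18 and 0.29 over the median of these foxes, against 0.92 and 1.22 for CD3D. The second CD3E probe set overlapped, since fox 10 (7.505) lay inside foxes 1 to 8 (6.92 to 7.58). CD3G, with 1 probe set, ran from 6.15 in fox 2 to 7.05 in fox 7 among foxes 1 to 8, and foxes 9, 10 and 11 (7.59, 7.20 and 7.61) were all higher. In the Arctic fox RefSeq annotation CD3G, CD3D and CD3E are consecutive protein-coding genes.

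**Figure D2:**
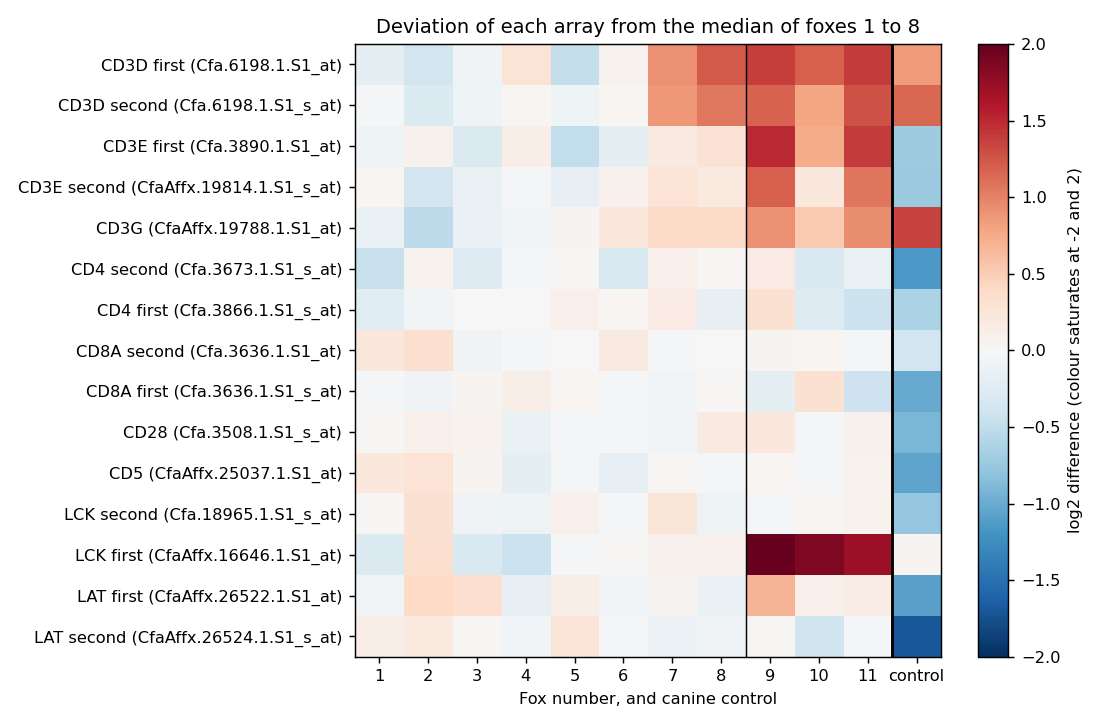
Each cell is the log2 value of an array minus the median of foxes 1 to 8 for that probe set (rows); columns are foxes 1 to 11 and the canine control, with lines before fox 9 and before the control. CD3D is raised from fox 7 on, CD3E and CD3G mostly in foxes 9, 10 and 11, and the first LCK row in these 3 foxes; on the control CD3D and CD3G are high while most other rows are low.

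LCK, the kinase that starts receptor signalling, had probe sets that disagreed on foxes 9, 10 and 11. Over foxes 1 to 8 the pair had a Pearson r of 0.672. The first stood at 8.88, 8.66 and 8.502 in foxes 9, 10 and 11, while foxes 1 to 8 covered 6.35 to 7.10. The second stood at 5.26 to 5.38 in foxes 9, 10 and 11, inside the 5.19 to 5.61 of foxes 1 to 8. The first thus divides the foxes without overlap, and the second does not.

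Foxes 9, 10 and 11 lay above all of foxes 1 to 8 in 3 of the 15 probe sets (CD3E, CD3G and LCK), and below them in 0. Over all tested probe sets 12.6% had these foxes above. The groups overlapped in the other 12. Of the marker lists of other cells, those of NK, monocyte and platelet genes had higher means in these foxes, those of B cell, neutrophil and erythroid genes overlapped, and that of 3 genes of immature lymphocytes was lower. The mean of 8 NK and cytotoxic genes was 7.71 to 8.34 there and 6.996 to 7.496 in foxes 1 to 8. That of 6 monocyte genes was 10.22 to 10.41 and 8.94 to 9.52, and that of 6 platelet genes 9.02 to 9.43 and 7.999 to 8.84. That of 8 B cell genes was 7.11 to 7.34 and 7.13 to 7.25, that of 7 neutrophil genes 10.66 to 11.97 and 9.30 to 10.98, and that of 5 erythroid genes 8.44 to 8.80 and 7.82 to 9.05. The mean of RAG1, RAG2 and DNTT was 6.62 to 6.77 in foxes 9, 10 and 11, and 6.81 to 7.04 in foxes 1 to 8. The part of other cells and of RNA quality in the CD3 and LCK values was not tested.

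Foxes 7 and 8, high in CD3D, were not apart on GAPDH, at 2.90 and 2.69 for the 3' minus middle difference. Their NK and cytotoxic means, 7.496 and 7.42, were the highest of foxes 1 to 8. Their monocyte means were 9.24 and 9.52, and that of fox 8 was the highest of foxes 1 to 8. Their neutrophil means, 9.87 and 10.70, and their B cell means, 7.17 and 7.15, lay inside the other 6. So did their platelet means, 8.41 and 8.69, and their erythroid means, 8.69 and 8.62.

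CD8A, a chain of the coreceptor of cytotoxic T cells, ran from 8.11 to 8.29 in foxes 1 to 8 by its first probe set (SD 0.07), a spread above that of 1.12% of all tested probe sets, and stood at 8.004, 8.49 and 7.76 in foxes 9, 10 and 11, outside that range on both sides. Its second probe set ran from 4.01 to 4.42 over all foxes, and the pair had a Pearson r of −0.692 over foxes 1 to 8, so the small differences in CD8A were not shared by its probe sets. CD4, the coreceptor of helper T cells, ran from 7.94 to 8.67 (first) and from 6.97 to 7.58 (second), with a Pearson r of 0.479 between these in foxes 1 to 8. Fox 9 was highest in both.

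CD28, the costimulatory receptor, was among the most even of all probe sets, from 7.46 to 7.81 over the 11 foxes (SD 0.10, above that of 4.02% of tested probe sets). CD5, the inhibitory scavenger-family receptor, ran from 8.11 in fox 4 to 8.59 in fox 2. LAT, the membrane adaptor that ZAP70 phosphorylates, ran from 9.45 to 10.29 by the first probe set, highest in fox 9 (10.29) and fox 2 (10.01). Its second probe set ran from 7.37 in fox 10 to 8.03 in fox 5. In CD4, CD8A, CD28, CD5 and LAT, foxes 9, 10 and 11 overlapped foxes 1 to 8.

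The pairs of genes over foxes 1 to 8 were then compared, each gene read by its first probe set. Foxes 9, 10 and 11 were left out, since a correlation over separate clusters would restate their distance. The 3 pairs within CD3 had Pearson's r of 0.75 (CD3D with CD3E), 0.75 (CD3D with CD3G) and 0.20 (CD3E with CD3G). The 18 pairs of a CD3 gene with another member ran from −0.63 to 0.27 (median 0.01), and the 15 pairs among the others from −0.70 to 0.64 (median 0.17). The lowest CD3 values were for CD3G with LAT (−0.63) and CD3G with CD5 (−0.62). With the probe sets of a gene averaged, CD8A with LCK turned to 0.20 in place of −0.70 and CD8A with CD5 to 0.40 in place of −0.62, while CD3E with CD3G was 0.61 in place of 0.20. All pairs share the same 8 arrays, and CD3D was higher in foxes 7 and 8 than in foxes 1 to 6. The part of that division in the CD3D pairs was not tested.

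**Figure D3:**
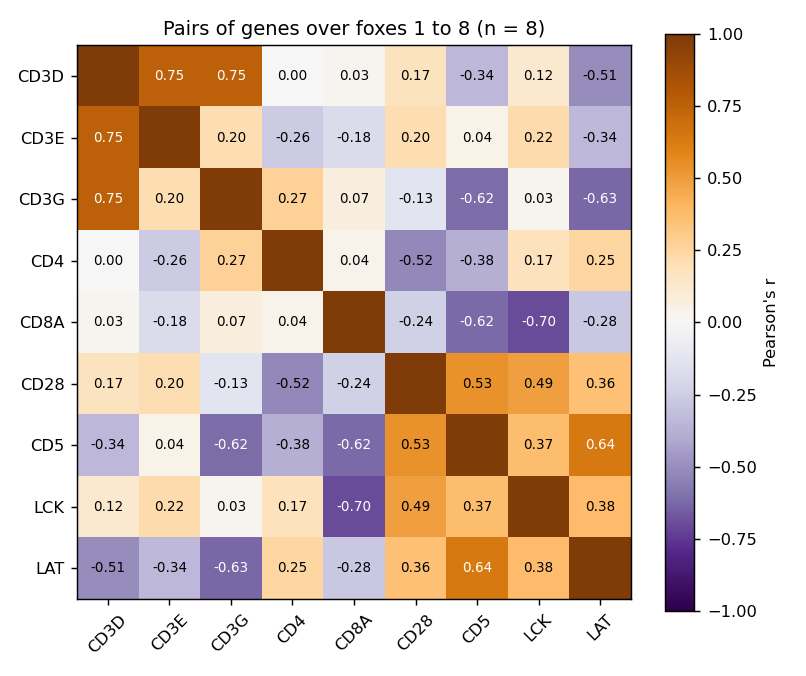
Pearson's r between members over foxes 1 to 8 (n = 8), each gene by its first probe set; orange is positive and purple negative. CD3D goes with CD3E and CD3G at 0.75, while the values of the CD3 genes with LAT run from −0.63 to −0.34.

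CD3E was tested against the 8 other members and against 1 gene each of 6 other blood cell types, 14 pairs in all. With CD3D the Pearson r was 0.752 (exact permutation p = 0.0315, adjusted 0.22) and Spearman's rho 0.786 (exact permutation p = 0.0279, adjusted 0.291). Without foxes 3 and 5, the farthest from the CD3E median, r was 0.712. That check kept foxes 7 and 8, which stood at 11.19 and 11.49 in CD3D, above the 9.79 to 10.55 of foxes 1 to 6. How far the r rests on foxes 7 and 8 was not tested. None of the 14 pairs passed adjustment by the exact permutation test, and 2 had an unadjusted p under 0.05. When probe sets of a gene were averaged the CD3D pair did pass, with an r of 0.901 (exact permutation adjusted p = 0.0243).

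The second pair was with ITGA2B, the platelet integrin alpha IIb, at a Pearson r of 0.825 (exact permutation p = 0.0116, adjusted 0.163) and a rho of 0.714 (exact permutation p = 0.0576, adjusted 0.291). Without foxes 3 and 5 its r was 0.794. The monocyte receptor gene CD14 had an r of 0.630, the haem synthesis gene ALAS2 0.507, the cytotoxic granule gene NKG7 0.484, the neutrophil receptor gene CSF3R 0.457 and the B cell receptor gene CD79A 0.335. For NKG7 the r was 0.984 without foxes 3 and 5 and −0.15 after quantile normalization again. For the other members r ran from −0.336 (LAT) to 0.220 (LCK). The differences between these correlations were not tested.

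Genes whose pattern was most like the mean of the 9 members over foxes 1 to 8 were sought among 2892 other genes with a fox mean above that of the median gene and an SD of at least 0.3. That mean followed CD3D most (Pearson r 0.884), then CD3E (0.718), CD3G (0.592), LCK (0.528) and CD28 (0.398). CD4 stood at 0.123, CD5 at −0.033, LAT at −0.128 and CD8A at −0.284, so the mean did not stand for all members. With each gene centred over foxes 1 to 8, the mean was 0.17 and 0.19 in foxes 7 and 8. It was −0.11 to 0.001 in foxes 1 to 6, so genes high in foxes 7 and 8 can rank high. The closest gene was KCNA3, a voltage-gated potassium channel, with an r of 0.944 over 8 foxes and values from 8.28 to 9.13. Next were the immunoproteasome subunit PSMB9 (0.889), BEND7 (0.882), the peroxisomal thiolase ACAA1 (0.878), the integrin ITGB7 (0.870), BANP (0.866), the smooth muscle actin ACTA2 (0.863), ZBTB4 (0.855), the sodium channel subunit SCNN1B (0.852) and the calcium channel ITPR3 (0.843). These genes head a ranking of 2892 over 8 foxes, and the r that ranking alone would give was not tested. In foxes 9, 10 and 11 PSMB9, ACAA1, ITGB7 and ZBTB4 were also above all of foxes 1 to 8. The other 6 overlapped, and ACTA2 reached 7.48 to 8.14 there, within or under the 7.69 to 8.97 of foxes 1 to 8. Over all genes, unfiltered by mean or SD, 14.2% had foxes 9, 10 and 11 above foxes 1 to 8.

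The comparison of the foxes with the control array asks which of these genes lay outside the level of 1 canine control. Expression and the match of the dog probes to each RNA cannot be told apart in these differences. CD4, CD8A, CD28, CD5, LAT and 1 LCK probe set were higher in the foxes, CD3G was lower, and CD3D and CD3E were not called. After quantile normalization again, or without foxes 9, 10 and 11, the first CD3E probe set was called higher too. By limma with Benjamini-Hochberg adjustment over all tested probe sets, 9 of the 15 member probe sets were higher in the foxes and 1 was lower, at an adjusted p under 0.05. Over all tested probe sets 42.1% were higher in the foxes and 18.9% lower. Read by first probe sets alone, 5 of 9 genes were higher and 1 lower, beside 44.6% and 18.5% of all genes. The median difference was 0.95 over the 15 probe sets and 0.46 over all tested. With arrays centred on their medians these were 0.68 and 0.19, and after quantile normalization again 0.68 and 0.31. The control is 1 array, so its own spread is unknown and was taken to equal that of the foxes.

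LAT differed most. Its second probe set ran from 7.37 to 8.03 in the foxes (median 7.75), against 6.08 on the control, a difference of 1.68 (SE 0.19, adjusted p by limma 1.53e-05). The first had a median of 9.72 in the foxes, against 8.53 on the control, a difference of 1.22 (SE 0.26, adjusted p by limma 0.00181). The control lay below all 11 foxes in both.

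CD5 had a median of 8.34 in the foxes, against 7.25 on the control, a difference of 1.07 (SE 0.16, adjusted p by limma 0.000175). CD28 had a median of 7.61 in the foxes, against 6.68, a difference of 0.95 (SE 0.13, adjusted p by limma 0.000109). For CD8A the medians were 8.15 (first) and 4.10 (second) in the foxes, against 7.17 and 3.71 on the control, differences of 0.99 and 0.44. In all of these the control lay below every fox.

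CD4 differed by 1.05 (second probe set, adjusted p by limma 0.00144) and by 0.58 (first, adjusted p by limma 0.0364), with medians of 7.39 and 8.36 in the foxes, against 6.26 and 7.74 on the control. The smaller CD4 and CD8A differences were not called under either rescaling; with centred arrays they were 0.31 and 0.18. The second LCK probe set had a median of 5.33 in the foxes, against 4.53 on the control, a difference of 0.81 (SE 0.16, adjusted p by limma 0.00106). The first differed by 0.41 (95% confidence interval −1.53 to 2.34), with 6 of 11 foxes above the control.

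The CD3 genes did not share a direction. CD3G ran from 6.15 to 7.61 in the foxes (median 6.90), against 8.03 on the control, a difference of −1.12 (SE 0.44, adjusted p by limma 0.0412), and the control lay above all 11 foxes. CD3D differed by −0.36 (95% confidence interval −1.90 to 1.17) and −0.72 (−1.95 to 0.51), with 5 and 2 of 11 foxes above the control. Both CD3D differences turned positive after quantile normalization again, at 0.62 and 0.03. CD3E lay above the control in 11 of 11 foxes by both probe sets, with differences of 1.001 (95% confidence interval −0.35 to 2.35, adjusted p by limma 0.176) and 0.96 (−0.06 to 1.98, adjusted p by limma 0.0927). After quantile normalization again the first was called, at 1.52 (adjusted p by limma 0.00219), and the second was not, at 0.66 (adjusted p by limma 0.232). The CD3G call was lost, at adjusted p by limma of 0.0503 to 0.0544, after quantile normalization again or without any 1 of foxes 1, 3, 4, 5, 6, 7 or 8.

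**Figure D4:**
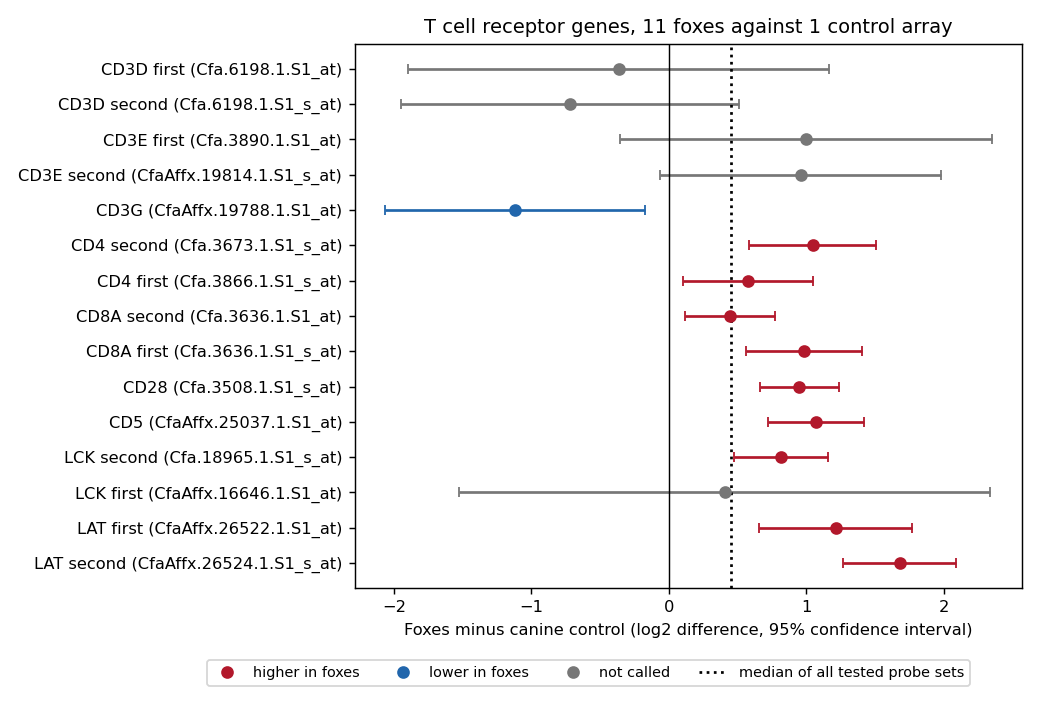
Difference between the 11 foxes and the canine control for each probe set (log2, foxes minus control), with the 95% confidence interval from limma; the dotted line is the median of all tested probe sets, 0.46. CD4, CD8A, CD28, CD5, LAT and 1 LCK probe set lie above 0, CD3G below 0, and the intervals of CD3D, CD3E and the other LCK probe set cross 0.

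Without foxes 9, 10 and 11, limma called 11 of the 15 probe sets higher and 1 lower in foxes 1 to 8, beside 49.1% and 22.9% of all tested probe sets. The probe sets gained were those of CD3E, at differences of 0.66 (adjusted p by limma 0.0392) and 0.73 (adjusted p by limma 0.0107). The CD3G difference was −1.33 (adjusted p by limma 0.00234) and the CD3D differences were −0.68 and −0.96, not called. In all, the control lay below all 11 foxes in 11 of the 15 probe sets, beside 55.1% of all tested, above them in 1 and inside them in 3.

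The marker lists were set against the control in the same way, beside the 44.6% of all genes that were higher in the foxes and the 18.5% that were lower. The means of all lists but the NK and cytotoxic one lay above the control in every fox. Of 13 measured T cell marker genes, which include the 9 members, 8 were higher in the foxes and 1 lower, and their mean was 7.84 to 8.72 in the foxes and 7.73 on the control. Of 7 neutrophil genes 5 were higher in the foxes, with means of 9.30 to 11.97 in the foxes and 7.34 on the control. Of 8 B cell genes 7 were higher, with means of 7.11 to 7.34 in the foxes and 6.27 on the control. The mean of the NK and cytotoxic genes was 6.996 to 8.34 in the foxes, which spans the 7.39 of the control, and 3 of these 8 were higher in the foxes. Of 6 monocyte genes 3 were higher, with means of 8.94 to 10.41 in the foxes and 8.51 on the control. Of 6 platelet genes 3 were higher, with means of 7.999 to 9.43 in the foxes and 6.95 on the control. Of 5 erythroid genes 4 were higher and 1 lower, with means of 7.82 to 9.05 in the foxes and 7.26 on the control. RAG1, RAG2 and DNTT, known from immature lymphocytes of thymus and marrow, lay above the control in all foxes, RAG1 at 6.72 to 7.65 in the foxes against 6.33 on the control. The part of other cells and tissues in the control values was not tested.

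The rest of the pathway was read from 108 further genes of T cell receptor signalling in 8 role groups, of which 91 were measured. Of these, 54 were higher in the foxes, 6 lower and 31 not called, beside the 44.6% and 18.5% of all genes. Their median difference was 0.87, and 0.53 over all genes. The 6 lower genes were HAVCR2, NCK1, ITPR1, PPP3CB, PRKCQ and TOX. Without foxes 9, 10 and 11, 66 of the 91 were higher and 9 lower, beside 49.1% and 22.9% of all tested probe sets. The shares over all genes were not computed for that fit, so these are not a like base for the 91 genes.

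Of 9 other receptor subunits and surface molecules, 6 were higher and 0 lower. CD247, the zeta chain that carries most of the receptor's signalling motifs, differed by 0.63 (SE 0.15, adjusted p by limma 0.0035), with 5.75 to 6.09 in the foxes and 5.25 on the control. CD8B, the partner chain of CD8A, differed by 0.85 (adjusted p by limma 0.000924) and spanned 8.45 to 8.92 over the foxes. The costimulatory CD27 differed by 1.07 and the adhesion receptor CD226 by 1.05. The phosphatase PTPRC, the CD45 of all leukocytes, differed by 2.86 and was not called (adjusted p by limma 0.0614), with 9.22 to 13.15 in the foxes, against 8.35 for the control; without foxes 9, 10 and 11 it was called, at 2.29 (adjusted p by limma 0.0392).

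Of 11 costimulatory and inhibitory receptors, 7 were higher and 1 lower. The CD28 antagonist CTLA4 differed by 2.46 (SE 0.79, adjusted p by limma 0.0178) and TIGIT by 1.35. HAVCR2, an inhibitory receptor also known as TIM-3, was lower, with a difference of −1.79 (SE 0.40, adjusted p by limma 0.00256), with 6.83 to 8.19 in the foxes and 9.02 on the control.

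Of 13 kinases, phosphatases and their regulators 7 were higher and 0 lower, and of 14 adaptors 7 were higher and 1 lower. SLA, which limits receptor signalling, differed by 3.08, and PTPN22, a phosphatase that acts on LCK, by 2.61. The ubiquitin ligase CBLB differed by 1.65. FYB1, an adaptor of T cells and myeloid cells, had the largest difference of the 91, 4.21 (SE 0.74, adjusted p by limma 0.000583), with 10.997 to 13.26 in the foxes and 7.97 on the control. LCP2, the SLP-76 that works with LAT and is shared with myeloid cells and platelets, differed by 2.68. The cytoskeletal adaptor NCK1 was lower, with a difference of −2.14. TRAT1, a T cell adaptor, was not called and spanned 5.18 to 9.04 over the foxes (SD 1.18), with the control at 7.81.

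Downstream, 6 of 11 calcium and NFAT genes were higher and 2 lower, and 3 of 8 NF-kB and MAP kinase genes were higher and 1 lower. The calcium channel ORAI1 differed by 1.004 and CABIN1, an inhibitor of calcineurin, by 1.19. PPP3CB, a catalytic subunit of calcineurin, was lower, with a difference of −2.41. PRKCQ, the protein kinase C theta that links the receptor to NF-kB, was lower, with a difference of −1.94 (SE 0.22, adjusted p by limma 1.4e-05), with 6.80 to 7.55 in the foxes and 8.96 on the control, while MALT1 and BCL10, which act after it, were higher by 0.98 and 0.84.

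Of 14 transcription factors 10 were higher and 1 lower, and of 11 cytokine and homing receptors 8 were higher and 0 lower. EOMES and RUNX3, factors of cytotoxic T cells, differed by 1.34 and 1.15. TOX, a factor of T cell development and exhaustion, was lower, with a difference of −3.01 (SE 0.52, adjusted p by limma 0.000508), with 5.42 to 7.51 in the foxes and 9.09 on the control. The interleukin receptors IL7R and IL2RB differed by 0.94 and 0.97 and the homing receptor CCR7 by 1.001. Foxes 9, 10 and 11 exceeded every one of foxes 1 to 8 in 19 of the 91 genes, beside 14.2% of all genes. Examples are the receptor S1PR1 (9.82 to 11.74 there and 8.40 to 9.65 in foxes 1 to 8), the chemokine CCL5 (9.67 to 10.17 and 7.19 to 8.07) and the phosphatase PTPN6 (10.49 to 12.94 and 8.15 to 9.60).

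**Figure D5:**
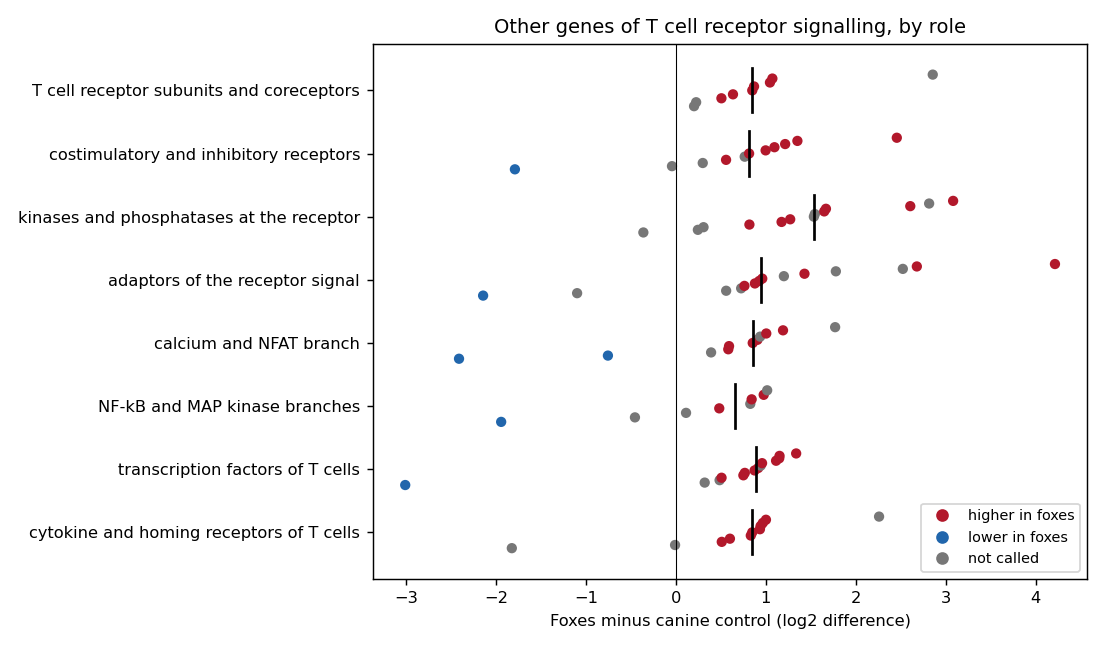
Difference between the foxes and the canine control (log2, foxes minus control) for 91 other genes of T cell receptor signalling, 1 point each, in 8 role groups; red points were higher in the foxes, blue lower, grey not called, and black bars are group medians. The medians lie between 0.65 and 1.53, with FYB1 farthest right at 4.21 and TOX farthest left at −3.01.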

How the data were processed

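Deposited values were log2 expression per probe set, made by the authors; the submitters' processing notes name RMA and Affymetrix Expression Console, without versions, and say nothing here of which arrays entered 1 normalization. Of 43035 probe sets, 111 array controls served for quality only. Symbols came from GEO's platform annotation; unless a probe set is named, a gene stands for the highest-mean one among its single-symbol probe sets. Foxes were compared with the control by limma 3.58.1 (lmFit, eBayes) in R 4.3.3, with Benjamini-Hochberg adjustment over 42924 probe sets and a threshold of 0.05. The fit was tested on simulated data. The simulated control was given the spread of the foxes, so this could not test how the real control varies. Correlations over foxes 1 to 8 used exact two-sided permutation tests adjusted over 14 pairs. Members and lists were chosen with earlier results of these data known. Pathway genes were named as the 3 called genes with the largest absolute difference and the 2 with the largest SD per role group, of which some are printed, with a few others chosen after their values were seen (CD247, CD8B, CBLB, ITPR1). Arrays differed from each other (0 identical pairs). Genes most like the members were the 10 with the highest Pearson r with their mean over foxes 1 to 8. Alternatives were other scalings, moderation, filters, thresholds, probe set rules and left-out foxes. The number of arrays limits the precision. Sequences were not used here.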

Additional observations from a re-analysis of the deposited data

How the results depend on the processing

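The number of member probe sets higher in the foxes, 9, stayed between 7 and 11 under rescaling, limma with trend and robust settings, the filter on low means, and without foxes 9, 10 and 11, and was 9 without each fox in turn; it was 4 when an absolute log2 difference of at least 1 was also required. The single lower probe set, CD3G, was not called after quantile normalization again (0) and was removed by the filter on low means (0), and the count ran from 0 to 1 without each fox. Of the 91 pathway genes, 22 in place of 54 were higher with the added threshold, and 3 in place of 6 were lower with the filter, which tests fewer genes. Of the member pairs with CD3E, 1 passed with the mean of all probe sets and of the other-cell pairs 1 without foxes 3 and 5. Signs turned for CD3D after quantile normalization again (0.62 and 0.030) and for the first LCK probe set without foxes 9, 10 and 11 (−0.13). Some correlations with CD3E turned as well. CD4 turned from −0.26 with the mean of probe sets (0.087) and without foxes 3 and 5 (0.074). CD8A turned from −0.18 without foxes 3 and 5 (0.31). CD5 turned from 0.041 by Spearman (−0.17), with centred arrays (−0.021), with the mean of probe sets (−0.19) and without foxes 3 and 5 (−0.0074). After quantile normalization again NKG7 turned from 0.48 to −0.15 and ALAS2 from 0.51 to −0.050. The first CD3E probe set was called higher after quantile normalization again (1.52) and without foxes 9, 10 and 11 (0.66). The cause was not tested. The SD of CD3D over the foxes was 0.46 after quantile normalization again, against 0.74 as deposited, and that of CD3E 0.32, against 0.65; the SD of LCK was 0.25 without foxes 9, 10 and 11, against 0.94. No paired analysis was possible because the control is 1 array and the labels give no replicate numbers.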
